A study of Mus musculus with 3 samples.

Results

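Intronic Runx1 regions are stretches of spinal cord chromatin that were enriched by a Runx1 antibody and that the authors' annotated tables place inside an intron. They were chosen as the regions of each replicate whose deposited location class begins with "Intron". They numbered 15 of 451 regions in replicate 1, 131 of 1641 in replicate 2 and 2087 of 13194 in replicate 3. Replicate 3 is the main set, and replicates 1 and 2 are used to say which of its regions were found again.

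Runx1 was mapped by chromatin immunoprecipitation and sequencing (ChIP-seq), and the series title places the study in microglial control of opioid analgesia and withdrawal. The mice were C57BL/6J males, 8 to 10 weeks old, with no other genotype or treatment given in the labels. They were perfused, dissociated cells of 5 cords at a time were fixed together in 1% formaldehyde, and chromatin was cut with micrococcal nuclease and sonicated. Chromatin of 10 cords, about 10 µg, went into each precipitation, and 9 µg of rabbit polyclonal anti-Runx1 was added. The 3 replicates form 1 group. Whether they share animals is not in the labels, so the spread between them may be technical. Replicate 3 was grouped by its title, since its tissue entry describes the antibody. No control list was used here, and read depth was unknown. Cords hold many cell types, so weak signal in many cells and strong signal in few cannot be told apart. In replicate 3, 31.0% of all coding genes were assigned a region of any class. Among genes that mark cell types, 39 of 40 myelin and oligodendrocyte genes were, and 29 of 32 neuronal adhesion, synapse and cytoskeleton genes. So were 8 of 20 astrocyte genes, 4 of 24 microglial genes and 0 of 20 endothelial, mural and meningeal genes.

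Runx1 is the DNA-binding subunit of a heterodimer with Cbfb and is best known from blood stem cells, platelets and myeloid cells, microglia included. Sequence-specific factors bind both at promoters and at enhancers, and enhancers often lie in introns, where they can act on the host gene or on a neighbour. An annotated intron can also hold the start site of a further transcript, so an intronic region is not always far from a promoter.

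Genome sequence of the regions was not used here, but RefSeq (GRCm38.p6) gives 300 bases around the start sites of known transcripts, 250 before and 50 after. Such a start site lay inside 11 of the 2087 intronic regions of replicate 3, with 14 start-site windows of 11 genes, most with predicted-gene (Gm) symbols. No RefSeq miRNA lay in an intronic region of replicate 3. In 4 windows the summit, the point of highest signal, fell within the window and the whole window lay in the region. The 3 of these with the highest fold, Gm19417, Gm52857 and Dlg1, are shown. Capitals mark the RUNX core motif, searched as TGTGGT or TGCGGT on both strands (ACCACA or ACCGCA on the other), forms that do not overlap each other.

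Gm19417: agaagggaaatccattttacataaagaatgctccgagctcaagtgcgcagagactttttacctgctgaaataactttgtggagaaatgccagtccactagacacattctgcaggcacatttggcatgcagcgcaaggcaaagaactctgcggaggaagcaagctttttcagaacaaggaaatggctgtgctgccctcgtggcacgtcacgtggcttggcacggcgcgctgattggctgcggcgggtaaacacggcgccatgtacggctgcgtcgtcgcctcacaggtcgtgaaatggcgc

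Gm52857: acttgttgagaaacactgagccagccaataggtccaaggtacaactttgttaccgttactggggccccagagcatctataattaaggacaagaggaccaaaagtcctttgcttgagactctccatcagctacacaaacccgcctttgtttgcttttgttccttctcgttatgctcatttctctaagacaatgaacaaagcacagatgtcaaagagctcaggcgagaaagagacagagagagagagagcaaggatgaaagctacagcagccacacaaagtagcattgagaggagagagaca

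Dlg1: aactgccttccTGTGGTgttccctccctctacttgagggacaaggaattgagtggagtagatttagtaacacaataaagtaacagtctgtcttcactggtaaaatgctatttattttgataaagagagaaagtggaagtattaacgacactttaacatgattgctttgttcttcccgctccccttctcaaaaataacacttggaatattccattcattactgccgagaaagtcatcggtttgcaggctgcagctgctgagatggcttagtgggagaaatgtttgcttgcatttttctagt

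The Gm19417 window (chr4:97868960-97869259, minus strand) lies within intron 2 of 3 of an Nfia transcript. Its region was found in all 3 replicates, and the summit of replicate 3 was 15 bp upstream of the start site. In replicates 1 and 2 the summit was 256 and 211 bp upstream. The replicate 1 region (chr4:97869031-97869298) did not reach the start site at 97869009. The Gm52857 window (chr6:36903283-36903582, plus strand) lies within intron 28 of 33 of Dgki, which encodes a diacylglycerol kinase, with the summit 1 bp downstream of the start site and a fold over background of 7.33. The Dlg1 window (chr16:31695298-31695597, plus strand) is an inner start site of Dlg1 itself, a scaffold protein of cell junctions and synapses, in intron 4 of 25. Its summit was 125 bp upstream of the start site, with a fold of 4.27. Neither of the Dgki and Dlg1 regions was found in replicates 1 and 2. The core motif was present in 2 of the 14 windows, Dlg1 and Gm31920, and in 22.4% of all 32851 RefSeq start-site windows. The letters are absent from the Gm19417 and Gm52857 windows, which says nothing of the rest of those regions.

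The share of regions in introns differed between replicates. It was 3.33% in replicate 1 (95% Wilson interval 2.03 to 5.41), 7.98% in replicate 2 (6.77 to 9.39) and 15.8% in replicate 3 (15.2 to 16.5), with a mean of 9.04% ± 6.31 (SD, n = 3). These intervals cover counting error only. The share was highest in the replicate with most regions and lowest in the replicate with fewest. With 451 regions of lowest q value taken from each list, it was 3.33%, 4.88% and 10.9% in replicates 1, 2 and 3, so replicate 3 stayed the highest at equal list length. Intronic regions covered 5.23 kb, 58.6 kb and 1051 kb in replicates 1, 2 and 3.

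The strength of a region is given by the authors' fold over background at its strongest summit, a value that describes a region within its own list. Intronic regions had a median fold of 4.50, 4.03 and 3.78 in replicates 1, 2 and 3. Promoter regions within 1 kb of a start site had 4.87, 4.00 and 3.84, and distal intergenic regions had 4.91, 4.15 and 3.91. The log2 difference of intronic from promoter medians was -0.11, 0.01 and -0.02 in the 3 replicates, a mean of -0.04 ± 0.07 (SD, n = 3), with p = 0.5 in a two-sided exact sign-flip permutation test. From distal intergenic medians it was -0.13, -0.04 and -0.05, a mean of -0.07 ± 0.05 (SD, n = 3), lower in 3 of 3 replicates, with p = 0.25 in the same exact test. With 3 replicates 0.25 is the smallest p that the test allows, so neither difference could pass 0.05.

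Intronic regions were narrower than promoter regions in 3 of 3 replicates, by amounts that varied. Median widths of intronic regions were 326, 389 and 396 bp in replicates 1, 2 and 3, against 337, 432.5 and 512 bp for promoter regions and 365, 392 and 418 bp for distal intergenic regions. The log2 difference from promoter regions was -0.05, -0.15 and -0.37, a mean of -0.19 ± 0.16 (SD, n = 3), and the exact sign-flip permutation test gave p = 0.25, its smallest value. Most intronic regions had 1 summit, in 93.3%, 93.1% and 79.8% of cases in replicates 1, 2 and 3, against 91.7%, 85.8% and 66.6% of promoter regions. At the summit, the reads piled up, as solved from the deposited fold and p value, had a median of 18, 18 and 21 for intronic regions and 22, 20 and 27 for promoter regions.

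**Figure D1:**
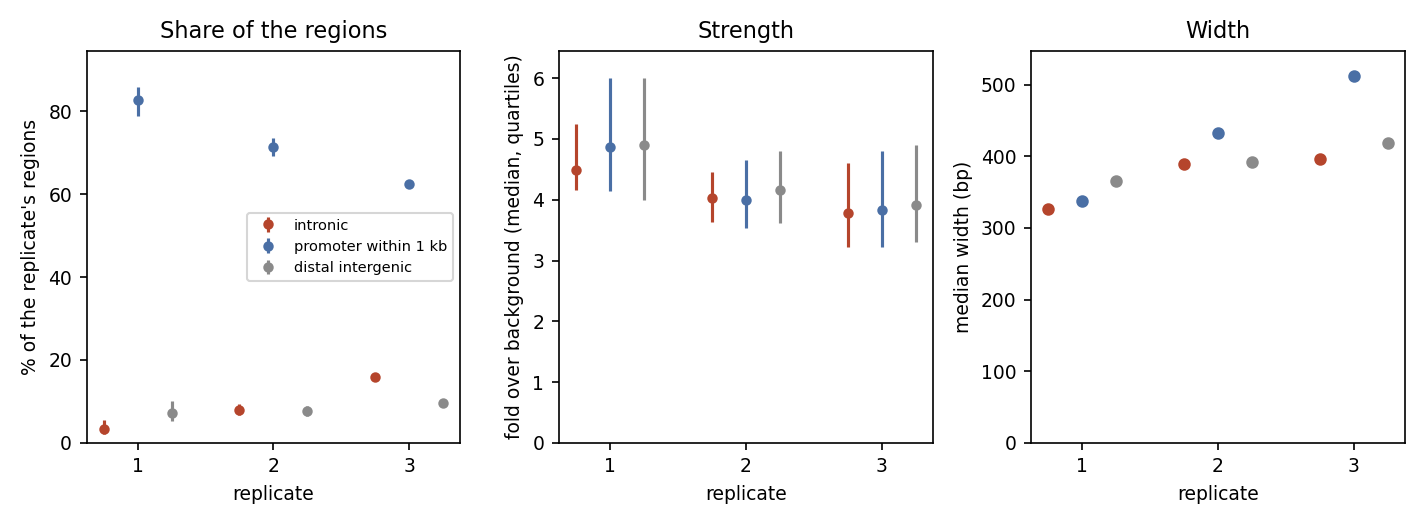
Share of the regions (points with 95% Wilson intervals), fold over background (median with quartiles) and median width of intronic, promoter and distal intergenic regions in each of 3 replicates. Intronic regions made up 3.33%, 7.98% and 15.8% of the lists, their median folds lay within 0.13 log2 units of the other classes, and their median width was below that of promoter regions in 3 of 3 replicates.

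Of the 2087 intronic regions of replicate 3, 98 (4.70%) were overlapped by at least 1 bp by a region of replicate 2, where 10.4% of all replicate 3 regions were. A region of replicate 1 overlapped 12 (0.575%), where 3.11% of all regions were overlapped. Either replicate overlapped 103 (4.94%, Wilson interval 4.09 to 5.95), where 11.7% of all regions were, 14.6% of promoter regions and 9.17% of distal intergenic regions. Both overlapped 7 (0.335%), where 1.81% of all regions were. The shares of intronic regions found again were thus below those of the whole list. Such shares are limited by how many regions of each class the shorter lists hold. Replicate 2 held 131 intronic, 1172 promoter and 125 distal intergenic regions, and replicate 3 held 2087, 8256 and 1276. As a share of the shorter lists, 13 of 15 intronic regions of replicate 1 (86.7%) and 117 of 131 of replicate 2 (89.3%) were overlapped by replicate 3, where 94.7% and 92.1% of all regions of those replicates were.

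The class changed between lists for some of the same stretches. Of the 131 intronic regions of replicate 2, 97 met an intronic region of replicate 3, 8 a promoter region within 1 kb, 5 a promoter region 2 to 3 kb away, 6 an exonic region and 1 a region in a 3′ UTR. Sall1, a zinc finger transcription factor, is an example: 3 intronic regions of replicate 2 with folds of 4.41 to 5.48 lie there, and the strongest met a promoter region of replicate 3 with a fold of 11.02. Near the edge of the class, the 5 intronic regions of replicate 3 nearest to a start site were 3013 to 3052 bp away with folds of 2.94 to 7.37, and the 5 farthest promoter regions were 2985 to 2993 bp away with folds of 2.53 to 3.93.

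The regions found again were stronger and wider than the others. A wider region meets the 1 bp overlap rule more easily, so part of the width contrast may follow from that rule. The 103 overlapped regions had a median fold of 5.74, a median width of 850 bp and a median pileup of 41 reads, against 3.74, 385 bp and 20 reads for the 1984 not overlapped. In 4 groups of near-equal size by fold, from weakest to strongest, 1.15%, 1.34%, 3.26% and 14.0% were overlapped. The strongest group, with folds from 4.61 to 16.97, held 73 of the 103. Intron number and distance differed little: intron 1 held 35.0% of the overlapped and 38.8% of the other regions, and the median distance to the assigned start site was 12.9 and 12.5 kb.

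**Figure D2:**
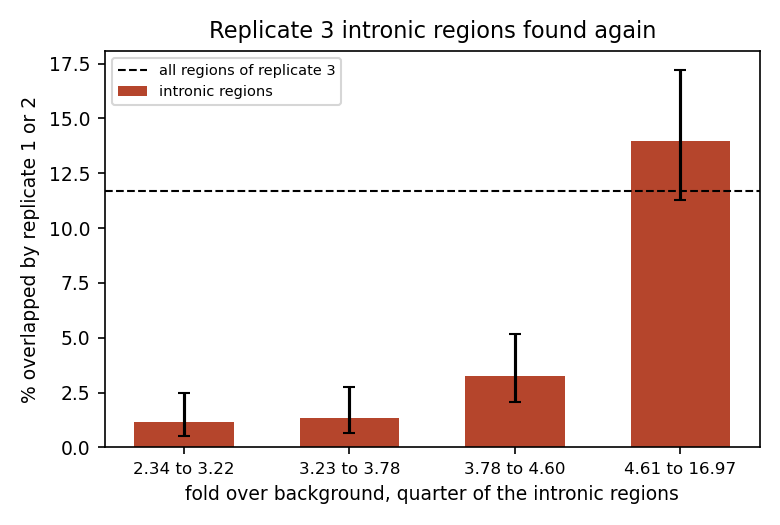
Share of the replicate 3 intronic regions overlapped by replicate 1 or 2, in 4 groups by fold over background, with 95% Wilson intervals. The bars stand at 1.15%, 1.34%, 3.26% and 14.0%, and the dashed line marks the 11.7% of all replicate 3 regions.

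Among the 7 intronic regions found in all 3 replicates, the region in Zbtb16 was the strongest in each list. Zbtb16 encodes a zinc finger repressor of progenitor cells, and its region (chr9:48737290-48737938, intron 3 of 6) lies 98.0 kb from the start site. Its fold was 7.82, 5.97 and 11.3 in replicates 1, 2 and 3, at percentiles 91.8, 94.2 and 99.4 of those lists. Pileups of 37, 32 and 65 reads stood on its summit. The exact 95% Poisson interval of the replicate 3 pileup was 50.2 to 82.9 over a background of 4.83 reads. It covers counting error in that replicate only.

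The region that held the Gm19417 start site in replicates 2 and 3 lies in Nfia, a nuclear factor I gene that drives astrocyte formation. The region had folds of 4.10, 3.30 and 9.11 in replicates 1, 2 and 3. It stood at percentiles 23.2, 9.75 and 98.2, low in replicates 1 and 2 and near the top of replicate 3. A region inside Itpkb, an inositol trisphosphate kinase gene, had folds of 5.33, 4.16 and 4.74. The region in intron 1 of Sort1, which encodes the sorting receptor sortilin, had folds of 4.32, 3.93 and 4.34. In intron 2 of Slc2a3, the gene of the neuronal glucose transporter, the folds were 4.83, 3.28 and 3.10. Those of Slc2a3 were below the middle of each list. The uncharacterised RNA gene 4930568G15Rik had folds of 4.80, 4.51 and 5.27. The remaining region lies on chromosome 18 in a host without a name in the tables, with folds of 3.78, 3.91 and 6.56.

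**Figure D3:**
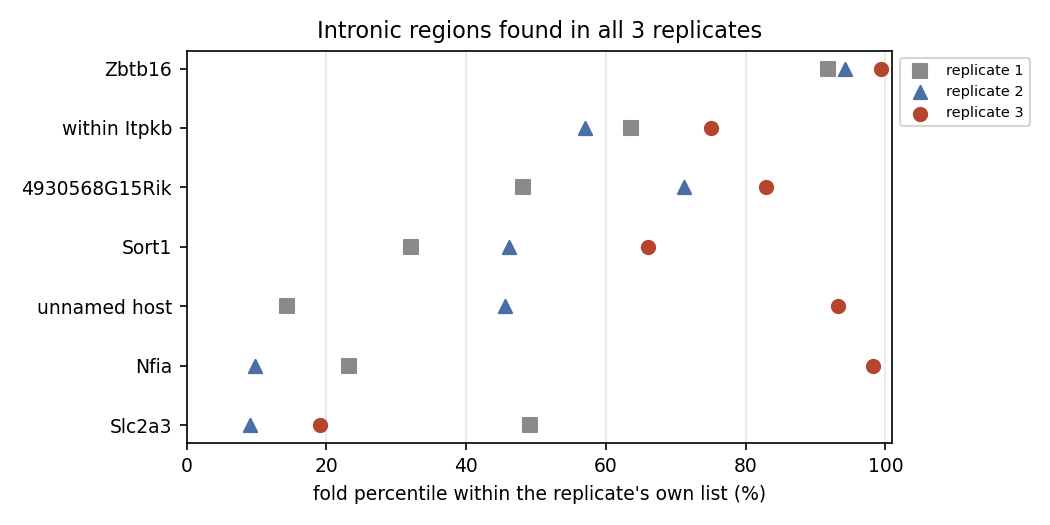
Percentile of fold within each replicate's own list for the 7 intronic regions found in replicates 1, 2 and 3 (squares, triangles and circles). Zbtb16 lies between 91.8 and 99.4 in the 3 lists, and Nfia lies at 9.75 in replicate 2 and 98.2 in replicate 3.

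The other 8 intronic regions of replicate 1 were found less widely. In replicate 3 but not replicate 2, regions overlapped those in Bach2, a repressor of lymphoid and myeloid cells, with folds of 4.50 in replicate 1 and 5.13 in replicate 3. The same held for Pepd, a dipeptidase gene (5.17 and 6.27), Mrpl48, a mitochondrial ribosomal protein gene (3.99 and 4.55), and the RNA genes C130071C03Rik (4.12 and 4.03) and 4930428N03Rik (5.75 and 8.17). A region in an unnamed host near Gm10268 had 4.22 in replicate 1 and met an exonic region of 4.05 in replicate 3. Those inside Cacng2, an AMPA receptor auxiliary subunit gene (5.57), and Gm16223 (4.20) were found in replicate 1 alone. Folds of the regions found in replicate 1 alone were within the range of the rest.

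The strongest intronic region of replicate 3 lies in Bcl2l1 (chr2:152819653-152821203, intron 2 of 2), the gene of the survival protein Bcl-xL. Its fold was 17.0, with 93 reads at the summit (exact Poisson interval 75.1 to 113.9) over a background of 4.54, and no region of replicates 1 and 2 overlapped it. The interval covers counting error only and takes no account of the region being picked as the strongest. Gas7 (chr11:67518643-67519379, intron 1 of 13), a gene of neurite outgrowth, had 13.9 in replicate 3 and 4.09 in replicate 2. The same pattern of a value near the top of replicate 3 and a middling one in replicate 2 was seen in most of the 10 strongest. Gm20753, an RNA gene, had 13.1 in replicate 3 and 5.43 in replicate 2. Gna12, a G protein alpha subunit gene, had 11.6 and 5.09, and Capn2, which encodes the protease calpain 2, had 11.5 and 4.41. Ttyh2, of a chloride channel family, had 11.5 and 4.19, and the RNA gene 3110039I08Rik had 11.6 and 4.16. Slain1, a microtubule regulator, had 11.4 and was, like Bcl2l1, found in replicate 3 alone at that stretch. Of the 10, 8 were overlapped by replicate 2, and none by replicate 1.

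Other regions overlapped by replicate 2 had folds above 8 in replicate 3, some in RNA genes or unnamed hosts and the following in coding genes. Igf1r, the receptor of insulin-like growth factor 1, had folds of 10.8 in replicate 3 and 5.22 in replicate 2. Rab31, a small GTPase of vesicle traffic, had 10.2 and 4.98. Urm1, a ubiquitin-like modifier, had 11.1 and 6.59, and Sulf2, a heparan sulfate sulfatase, had 9.11 and 3.64. Urm1 was the strongest intronic region of replicate 2, while the 3.64 of Sulf2 was below the intronic median of that list, 4.03. Bcar1, an adaptor of cell adhesion signalling, had 8.94 and 3.42, and Tppp, a tubulin-binding protein of oligodendrocytes, had 8.43 and 3.40. Hivep3, a zinc finger gene, had 8.09 and 3.32, and Tulp4 had 8.58 and 3.28. These genes were chosen for their folds after the values were seen.

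Over the 103 regions found again, 23 had a fold of 8 or more in replicate 3, 40 a fold of 5 to 8 and 40 a fold under 5, and 77 lay in 74 named coding hosts. Hosts of insulin, inositol phosphate and calcium signalling included Irs1, the insulin receptor substrate, with folds of 7.15 in replicate 3 and 3.98 in replicate 2, Inpp5a, an inositol phosphatase (6.99 and 3.62), and Rcan2, a calcineurin inhibitor (7.23 and 3.84). Cytoskeletal and motor hosts included Map7, which binds microtubules (6.56 and 4.28), and the kinesins Kif3c (5.45 and 3.66) and Kif21b (4.57 and 3.82). These pairs of values lay above the median of 3.78 of all intronic regions of replicate 3 and on both sides of the 4.03 of replicate 2. Synaptic and adhesion hosts included Grm3, a metabotropic glutamate receptor (5.35 and 3.52), Opcml, a neuronal adhesion protein (4.85 and 3.40), and Gpm6a, a neuronal membrane glycoprotein (4.69 and 3.35). Tenm4, a teneurin that guides oligodendrocyte maturation, had 3.45 in replicate 3 and 6.14 in replicate 2, and Slitrk3, a synapse organiser, had 3.22 and 3.70. For these last hosts the fold was the lower one in replicate 3. Regulators of transcription included Zmiz1 (7.01 and 4.21), Lbh (6.81 and 5.35), Pbx3, a homeodomain cofactor (4.07 and 4.04), Chd9, a chromatin remodeller (4.48 and 4.45), and Jdp2, a repressor of AP-1 sites (3.60 and 4.34). Hosts of vesicle traffic and lipid metabolism included Vps8 (3.82 and 4.02), Epn2 (3.79 and 4.27), Rab3gap2 (2.70 and 4.96), Agpat4, an acyltransferase (5.99 and 3.20), and Acer2, a ceramidase (3.74 and 3.86). The folds of a region in these 2 lists are on separate backgrounds, so a difference between them cannot be read as a change. Of the 98 regions overlapped by replicate 2, 83 had the higher fold in replicate 3, with medians of 5.77 in replicate 3 and 4.03 in replicate 2. The genes of these sentences, too, were picked as examples after their values were seen.

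The widest intronic regions of replicate 3 spanned 5361 and 4752 bp in intron 1 of the RNA gene Lncppara, with 12 and 10 summits and folds of 4.81 and 6.67. Slain1 followed with 4482 bp and 9 summits, and Zeb2 with 3407 and 2421 bp in intron 3. Bahcc1, a chromatin regulator, had a region of 2267 bp, Pantr1 of 2285 bp, Cxxc5 of 2277 bp, Rnf220 of 2015 bp and Brinp3 of 1997 bp. All 10 lay well above the median of 396 bp, and none exceeded the widest regions of the whole list, which reached 26649 bp. Width and strength did not go together throughout: the Bcl2l1 region, the strongest, spanned 1551 bp.

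Introns nearest to the start of a transcript held many regions. Intron 1 held 5 of 15 regions in replicate 1 (33.3%), 47 of 131 in replicate 2 (35.9%) and 805 of 2087 in replicate 3 (38.6%), a mean of 35.9% ± 2.62 (SD, n = 3). Intron 2 held a further 20.5% in replicate 3, intron 3 held 12.3%, and intron 6 or later held 18.6%. Introns differ in length and first introns are often long, and intron lengths were not used here, so these shares are not densities. Median folds differed little by intron number, from 3.69 in intron 2 to 4.00 in intron 4, with 3.77 in intron 1.

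The median distance to the start site of the assigned gene, the gene with the nearest start in the authors' tables, was 10.8, 11.1 and 12.6 kb in replicates 1, 2 and 3. It averaged 11.5 ± 0.934 kb (SD, n = 3). The class begins at 3 kb by its construction, and the farthest region of replicate 3 was 467.9 kb away. By distance, the median fold of replicate 3 was 3.64 at 3 to 5 kb and between 3.75 and 3.87 in each band beyond. The host gene was the assigned gene in 1322 of the 2087 regions of replicate 3 (63.3%), so the nearest start often belonged to another gene. In replicate 3, 63.7% were assigned to a coding gene, 7.38% to an antisense RNA gene and 7.19% to a long intergenic RNA gene.

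Some hosts held more than 1 region. The 2087 regions of replicate 3 lay in 1206 host genes, of which 790 had 1 region and 57 had 5 or more. Of 881 pairs of neighbouring regions in the same host, 77.0% lay within 50 kb of each other, and the median gap was 10.3 kb. No reference spacing was set beside these values, so they do not show whether regions lay closer together than host length allows. Hosts were named for 1802 regions, and 885 named hosts were coding genes, 4.04% of the 21900 coding genes of RefSeq. Coding hosts were long genes, with a median of 117.6 kb, against 17.1 kb for all coding genes.

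Zeb2, a zinc finger homeobox repressor that oligodendrocytes need to myelinate, held the most regions. It had 24 intronic regions in replicate 3, 3 in replicate 2 and 0 in replicate 1, with folds of 2.90 to 6.48 in replicate 3. They lay in 3 introns over 102.3 kb and came to 17.9 regions per 100 kb of gene. Of the 24, 2 were overlapped by a region of replicate 2. Pcdh9, a protocadherin gene of cell adhesion, had 18 in replicate 3 and 2 in replicate 2, or 2.05 per 100 kb. Pde4b, a phosphodiesterase that breaks down cyclic AMP, had 11 and 2, and Skap1, a T cell adaptor gene, had 11 and 0. Pcdh9 thus had the next highest count after Zeb2, at a far lower density.

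Qk, whose RNA-binding protein quaking acts on myelin transcripts, had 10 regions in replicate 3 and 0 in replicate 2, with 9 of the 10 in intron 1. Ebf3, a helix-loop-helix factor of neurons, had 9 and 3. Brinp3 had 9 and 0. The basic helix-loop-helix gene Tcf4 had 11 and 0, and Mbp, which encodes myelin basic protein, had 9 and 0. Fgfr2, a fibroblast growth factor receptor, was given 9 and 1, but only 5 of its 9 lay in its RefSeq gene body. Its strongest, at a fold of 4.65, lay in that of Fam53b. Over all coding hosts of replicate 3, 98.7% of the 1638 regions lay in the RefSeq body of the host.

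**Figure D4:**
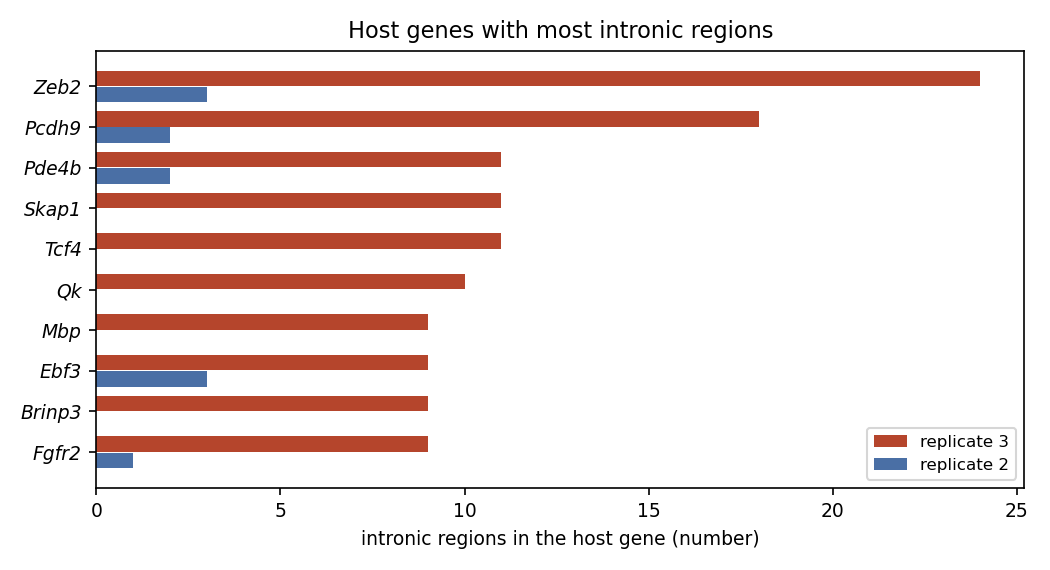
Number of intronic regions in replicate 3 (red) and replicate 2 (blue) in the 10 host genes with most in replicate 3. Zeb2 has 24 and 3, and Fgfr2 has 9 and 1, of which 5 of the 9 lie in its RefSeq gene body.

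Hosts of intronic regions often had a promoter region too. In replicate 3, 632 of the 885 coding hosts (71.4%, Wilson interval 68.3 to 74.3) were assigned a promoter region within 1 kb, where 27.9% of all coding genes were. Long genes carried both kinds more often, so the shares were set side by side among the 5475 longest coding genes, those from 44.3 kb up. There 726 genes were hosts (13.3%), and 72.9% of these hosts had a promoter region, against 39.1% of all genes of that length. In replicate 2, 25 of 93 coding hosts (26.9%) had one, against 4.29% of all coding genes, and in replicate 1 the count was 1 of 7 (14.3%), against 1.36%.

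Myelin is made by oligodendrocytes, which wrap axons of the cord. Among myelin and oligodendrocyte genes, 15 of 40 held an intronic region in replicate 3, 5 in replicate 2 and 0 in replicate 1, where 4.04%, 0.425% and 0.032% of all coding genes did. Their gene bodies held 42 regions, or 23.8 per Mb, where all coding gene bodies held 1.80 per Mb. Of the 42, Mbp held 9, Gpr37 6 and Cldn11 5. The list was chosen with earlier results of these data known, so this contrast is a description only. Pllp, the myelin protein plasmolipin, had 3 with folds up to 6.87 in replicate 3 and 1 of 4.58 in replicate 2. Fa2h, which hydroxylates fatty acids of myelin lipids, had 2 with folds of 3.48 and 3.61 in replicate 3, and 1 of 3.40 in replicate 2. The 9 of Mbp had folds of 2.66 to 7.70 in replicate 3. The median fold of the list was 3.57 in replicate 3, no higher than the 3.77 of all coding hosts. Mog and Car2, a myelin surface protein and a carbonic anhydrase, held intronic regions in replicate 2 alone, of fold 4.27 and 4.76. In replicate 3 each was assigned 3 regions, with a promoter region among them.

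Oligodendrocyte lineage transcription factors held intronic regions in 7 of 20 genes in replicate 3, 1 in replicate 2 and 0 in replicate 1, where 4.04%, 0.425% and 0.032% of all coding genes did. Their bodies held 39 regions, 24 of them in Zeb2, or 13.2 per Mb, where all coding gene bodies held 1.80. Myrf, the master regulator of myelin genes, had 1 of fold 5.79. Tcf7l2, a Wnt effector, had 3 with folds of 3.62 to 6.83, and Zfp536, a zinc finger gene, had 8 with folds of 2.81 to 4.00. Apart from Zeb2 these were found in replicate 3 alone.

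Neural transcription factors more broadly held intronic regions in 18 of 40 genes in replicate 3, 6 in replicate 2 and 2, Nfia and Zbtb16, in replicate 1, where 4.04%, 0.425% and 0.032% of all coding genes did. These are long genes, with a median of 184 kb, and 13.3% of the 5475 longest coding genes were hosts in replicate 3. Their bodies held 70 regions, or 6.83 per Mb, where all coding gene bodies held 1.80. Auts2, a neuronal chromatin regulator, had 6 with folds of 4.45 to 6.65 in replicate 3 and 1 of 3.84 in replicate 2. Zbtb20 had 3 with folds up to 5.72, and 1 of 3.47 in replicate 2. Spinal cord patterning factors held them in 3 of 32 genes, where 4.04% of all coding genes did: Lhx5 had 2 with folds up to 4.43, Nkx6-1 had 2 up to 3.78, and Irx5 had 1 of 2.98 in replicate 3 and 1 of 4.32 in replicate 2. The region given to Irx5 lay outside its RefSeq body. Patterning genes are short, with a median of 6.67 kb, against 184 kb for the neural list. Bodies of the patterning genes held 5 regions, or 7.66 per Mb, where all coding gene bodies held 1.80. Whether gene length bears on these counts was not tested.

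Neuronal adhesion, synapse and cytoskeleton genes held intronic regions in 13 of 32 genes in replicate 3, 1 in replicate 2 and 0 in replicate 1. With a median length of 532 kb their bodies held 2.04 regions per Mb, close to the 1.80 of all coding genes. Mapt, the gene of tau, had 5 with folds up to 8.40. Ank3 and Ank2, ankyrins of the axon, had 4 and 7 with folds up to 6.69 and 6.36, and Lrp1b had 7 up to 5.88. Axon guidance genes held them in 7 of 28 genes, at 1.27 per Mb. Unc5c, a netrin receptor, had 3 up to 5.60, Robo2, a Slit receptor, had 1 of 3.81, Sema4d had 1 of 3.78 and Unc5b had 2 up to 3.72. For both lists the share of genes was above the 4.04% of all coding genes, while the density of the axon guidance list was below 1.80.

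Microglial genes held no intronic region in any replicate: 0 of 24 in replicate 3, with a Wilson upper bound of 13.8%, where 4.04% of all coding genes held one. The upper bound lies above that share, so a difference from all coding genes was not detectable in a list of this size. Endothelial, mural and meningeal genes also held none, 0 of 20, with an upper bound of 16.1%, likewise above 4.04%. Their median lengths were 13.9 and 39.3 kb. Of the myeloid transcription factors, 1 of 22 held any, Bach2, with 4 in replicate 3 of folds up to 5.86, 1 in replicate 2 of 4.14 and 1 in replicate 1 of 4.50. Of the RUNX family and its cofactors, 1 of 21 did, in replicate 3 alone. Both shares were near the 4.04% of all coding genes.

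Astrocyte genes held intronic regions in 3 of 20 in replicate 3, where 4.04% of all coding genes did. Their bodies held 2 regions, or 1.65 per Mb, below the 1.80 of all coding gene bodies. Bodies of opioid signalling and lysosomal genes held 3.47 and 5.71 per Mb. Ntrk2, the neurotrophin receptor TrkB, had 1 of fold 6.06, Slc1a3, a glutamate transporter, had 1 of 2.85, and Aldh1l1 was given 2 up to 5.05 that lay outside its RefSeq body. Opioid signalling genes held them in 3 of 28, against the same 4.04%, with none in an opioid receptor gene: Gnao1, a G protein alpha subunit, had 4 up to 5.00, Adcy5, an adenylyl cyclase, had 1 of 3.63, and Arrb1, beta-arrestin 1, had 1 of 2.66. Lysosomal genes held them in 4 of 24, again against 4.04%: Sort1 in all 3 replicates, and in replicate 3 alone Mitf, a regulator of lysosome genes, with 1 of 4.60, Psap with 1 of 3.20 and Npc1 with 1 of 3.19. Over the 13 lists together, 75 of 351 genes held an intronic region in replicate 3, 16 in replicate 2 and 4 in replicate 1. Counted by the assigned gene 60 did, where 3.67% of all coding genes did, and by RefSeq gene body 81, where 4.83% did. By assigned gene the count was 1 for lysosomal, 1 for astrocyte and 4 for axon guidance genes. For oligodendrocyte lineage transcription factors it rose to 8. With a fold of 5 or more the lysosomal count was 0.

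**Figure D5:**
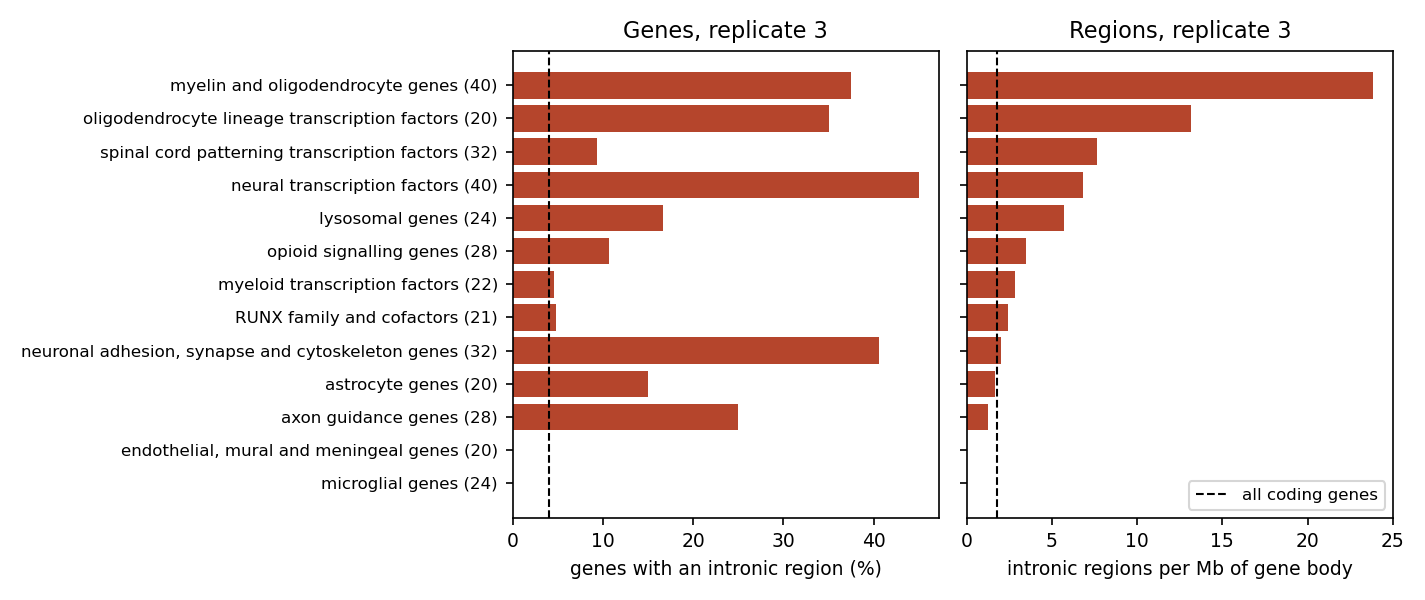
Share of each list's genes with an intronic region (left) and intronic regions per Mb of RefSeq gene body (right) in replicate 3, with the number of genes in brackets and the value of all coding genes dashed. Myelin and oligodendrocyte genes stand at 23.8 per Mb against 1.80 for all coding genes, neuronal genes at 2.04, and microglial and endothelial genes at 0. The lists were chosen with earlier results of these data known.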

How the data were processed

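Per the submitters' processing notes, reads were handled with Trimmomatic 0.38, FastQC, Bowtie2, SAMtools 1.9, Picard 2.18.26 and MACS2 2.1.2 on build GRCm38. Settings of these tools and any calling control are not stated in the sources used. The deposited lists give each summit the authors' score, its ratio to background (the fold), its −log10 p and its −log10 q. All q values were 1% or lower. Regions were called per replicate. The authors' annotated tables add a location class, an intron number, a transcript and the gene with the nearest start.

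Each region took the fold of its strongest summit. Pileup and background were solved from the deposited fold and −log10 p under a Poisson model, within 0.001, for 100% of regions. The host gene is the gene of the annotated intron. Its symbol came from the ID and symbol pairs of the same tables and was found for 1802 of 2087 replicate 3 regions; 218 of the other 285 lay in a RefSeq coding gene body. Overlap means at least 1 bp, and starts are counted from 1. Class medians were compared over the 3 replicates by exact sign-flip tests. Regions of a list are not replicates, so shares and medians over them are given without tests.

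Genes named by rule were the hosts of all replicate 1 intronic regions, of regions found in all 3 replicates, of the 10 strongest, the 10 widest and the 10 hosts with most regions in replicate 3, and up to 4 genes per list. Some genes that this rule names are left out of the text, and others, such as Sall1, Mog, Car2 and the examples among regions found again, were named after their values were seen. The members, the 13 gene lists and this rule were chosen with earlier results of these data known. A planned search for the RUNX motif in the regions was not run, since no genome sequence was used. Alternatives were q of 1e-05 or lower, a fold of 5 or more, equal list length, 50% overlap, summits within 200 bp, other summit or gene choices and leaving out each replicate. The scripts were tested on simulated data. Software was scipy 1.17.1, pandas 2.3.3, numpy 2.4.6 and matplotlib 3.10.9 under Python 3.11.15.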

Additional observations from a re-analysis of the deposited data

How the results depend on the processing

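The mean share of regions in introns was 9.04%, and 5.65% to 11.9% with 1 replicate left out. Differences of median fold and width between intronic and other regions, as means over replicates, kept their sign under every alternative run, and none could pass the threshold with 3 replicates or fewer; the mean log2 difference of fold from promoter regions shrank to -0.0047 without replicate 1. Within replicate 3 alone that difference, -0.02, was 0.01 with the mean over summits, 0.02 for regions with 1 summit and 0.05 with q of 1e-05 or lower. The share of replicate 3 intronic regions found again was 4.94%. It was 1.96% with overlap of 50% of both regions and 2.71% with q of 1e-05 or lower in all lists, where the other lists are shorter. It was 4.70% without replicate 1 and 0.575% without replicate 2, so it rests on replicate 2. The mean share in intron 1, 35.9%, was 29.2% with a fold of 5 or more, where replicates 1 and 2 kept 5 and 14 regions, and 28.8% in regions within the RefSeq body of a named coding host, an alternative chosen after seeing the data, where replicate 1 kept 7. The mean of the median distances, 11.5 kb, was 19.4 kb with q of 1e-05 or lower, where replicate 1 kept 6 regions with a median of 34.7 kb and replicate 3 had 12.4 kb. Of 75 list genes with an intronic region, 21 were left with a fold of 5 or more; 60 were counted by assigned gene and 81 by RefSeq gene body, the last also chosen after seeing the data. The motif search in the regions was not run. No paired analysis was possible because all samples belong to 1 group. The small lists of replicates 1 and 2 limit what could be found again.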
